A study of Homo sapiens with 8 samples.

Results

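The genes described here encode the 5 NF-kB subunits (NFKB1, NFKB2, REL, RELA and RELB) and 5 proteins that restrain or redirect them (NFKBIA, NFKBIE, NFKBIZ, BCL3 and TNFAIP3). These 10 genes were taken by symbol from 57992 genes listed for Molm13 cells and by gene identifier from 58174 genes listed for THP1 cells, and both tables held all 10. Molm13 and THP1 are human acute myeloid leukemia (AML) lines, each carrying an MLL-AF9 fusion. In each line, cells with a control short hairpin RNA (shCtrl, genotype labelled WT) were compared with cells in which the arginine methyltransferase gene PRMT9 was knocked down (shPRMT9, genotype labelled PRMT9 knockdown). All cultures, the shCtrl ones included, received Dox, the drug that switches on the hairpin, and the labels give no induction time. There were 2 libraries per group and 8 in all. Nothing in the labels says that libraries of a group came from separate cultures, so p-values measure only the spread between these samples, which may be technical. The 2 shPRMT9 libraries of a line were read as replicates by their labels, although the study also numbers its hairpins in that way.

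NF-kB proteins act as dimers that bind kB sites in DNA. In resting cells, IkB proteins such as those made by NFKBIA and NFKBIE hold the dimers in the cytoplasm, and signals from toll-like, cytokine and TNF receptors or from nucleic acid sensors release them. In the canonical arm, dimers of RELA or REL with the NFKB1 product p50 enter the nucleus. In the alternative arm, the NFKB2 product p100 is processed to p52, which pairs with RELB. Several of the genes, NFKBIA and TNFAIP3 above all, are themselves NF-kB targets and form feedback loops, and in myeloid cells the pathway drives cytokine genes and survival genes.

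NF-kB genes are known to carry kB sites near their start sites. Sites of 5 members are printed here because these members ranged from strongly upregulated to nearly level. RefSeq (GRCh38.p14) gave promoters for 8 of the 10 genes, in 13 entries; RELB and NFKBIE were not among them. The 250 bases before each start were searched on both strands for the kB consensus, and 8 of the 13 entries, from 6 genes, held a match, compared with 9.96% of 35116 promoters in the same table. Below, capitals mark the matching bases in 30-base stretches read 5′ to 3′ on the gene's strand, and overlapping matches run together.
NFKB2, the second start site (chr10:102394461-102394490, plus strand): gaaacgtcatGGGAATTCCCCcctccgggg
NFKB2, the third start site (chr10:102395674-102395703, plus strand): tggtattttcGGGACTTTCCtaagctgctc
NFKBIA (chr14:35404811-35404840, minus strand): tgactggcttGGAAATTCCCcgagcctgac
TNFAIP3 (chr6:137867188-137867217, plus strand): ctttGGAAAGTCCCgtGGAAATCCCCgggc
NFKB1 (chr4:102501300-102501329, plus strand): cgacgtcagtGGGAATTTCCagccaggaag
REL (chr2:60881517-60881546, plus strand): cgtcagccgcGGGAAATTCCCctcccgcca
Counted from the start site, the first matching base lay at -107 and -21 for the NFKB2 stretches, -81 for NFKBIA, -67 for TNFAIP3, -49 for NFKB1 and -47 for REL. NFKBIZ had matches at -223 and -239 of its start sites, and neither the RELA entries nor the BCL3 entry held any. A paired-GAAA motif of interferon regulatory factors, GAAANNGAAA, was present in 3.02% of promoters and the STAT motif TTCNNNGAA in 6.57%, and 1 RELA entry held each. A match describes letters in this window and is not evidence of binding.

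Library totals ranged from 18720950 to 27356870 counts. PRMT9 itself (chr4:147637785-147684230) fell in both lines: Molm13 control cells gave 332 and 289 counts and KD cells 41 and 56 (log2 fold change -2.68 ± 0.14 SE, FDR = 3.42e-21), and in THP1 the counts were 317 and 352 against 60 and 68 (-2.29 ± 0.13, FDR = 3.46e-14). FDR is the Benjamini-Hochberg adjusted p of edgeR's quasi-likelihood test over all genes tested in a line. PRMT9 overlaps TMEM184C on the opposite strand, and the strand setting of the counting is not given in the sources used here. Of 10 myeloid markers listed, SPI1, CEBPA, CD33 and LYZ stood at 59.7 CPM or more in every group mean of both lines. Others were low. CD14 stood at 0.251 CPM in Molm13 control cells and 0.378 CPM with KD, and was not tested there. In THP1 control cells, CD14 stood at 0.901 CPM. CD68 stood at 2.33 CPM in Molm13 and 4.63 CPM in THP1 control cells. CD3D, CD3E and CD8A had no count in any THP1 library, nor did MS4A1 and CD2 in any Molm13 library. Some lymphoid markers were present, however: NCAM1 stood at 203 CPM in Molm13 and 178 CPM in THP1 control cells, and PAX5 at 42.4 CPM in Molm13. NKG7 was called higher in both lines (log2 fold change 0.77 and 0.84), and PAX5 in THP1 (2.80 CPM to 11.5 CPM, 2.03, FDR = 6.72e-13). The THP1 libraries carry the letters OCI in their library names, whereas every other label calls them THP1. Of 4 MLL fusion target genes listed, HOXA9, HOXA10 and MEF2C stood at 62.3, 84.1 and 336 CPM in Molm13 control cells. In THP1 control cells they stood at 53.4, 44.3 and 287 CPM. MEIS1, however, was 73.5 CPM in Molm13 and 0.209 CPM in THP1 control cells. HOXA10 was called lower with KD in THP1 (-0.59). The identity of the line was not tested. Monocytic markers moved with the knockdown, though not all one way. Of those tested, 4 of 9 in Molm13 and 5 of 10 in THP1 were called higher, as were 11.4% and 3.84% of all genes. They were LYZ, CSF1R, ITGAM and CD68 in both lines and CD14 in THP1 (named after their values were seen). MPO was called lower in THP1. Passing the FDR limit only, MPO (-0.56) and FCGR1A (-0.44) were lower in Molm13 and CEBPA (-0.12) in THP1. The summed level of the 10 markers was 1293 to 1299 CPM in control and 1901 to 1907 CPM in KD libraries of Molm13. In THP1 it was 2635 to 2680 CPM against 3938 to 4092 CPM. LYZ made up much of these sums, with means of 634 CPM and 1004 CPM in Molm13 and 1886 CPM and 3082 CPM in THP1. The part of these markers in the results on the NF-kB genes was not tested. In bulk RNA, more cells of a type and more RNA per cell cannot be told apart.

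With PRMT9 KD, 6 of the 10 NF-kB genes were differentially expressed genes (DEGs) in Molm13 and 7 of 10 in THP1, and each of these was upregulated. A DEG had an FDR below 0.05, a fold change above 1.5 and more than 1 RPKM (reads scaled to exon length and library size) in at least 1 library. The 6 Molm13 genes were NFKB2, RELB, BCL3, TNFAIP3, NFKBIA and NFKBIE, and THP1 added NFKBIZ. Among all genes tested, 11.4% were called higher and 11.4% lower in Molm13, and 3.84% were called higher and 2.39% lower in THP1. The 6 genes upregulated in both lines compare with 278 of 13476 genes tested in both (2.06%). Over the 10 genes, the log2 fold change had a median of 0.96 for Molm13 and 1.30 for THP1, where the medians over all tested genes were 6.91e-05 and -0.00068. The study's own KD signature, drawn from these libraries, names NFKB2, RELB, BCL3, TNFAIP3 and NFKBIA, so the direction of these 5 genes is not independent evidence. By FDR alone, 9 of the 10 genes were higher and NFKB1 was lower in Molm13 (33.4% and 33.6% of all genes), and 9 were higher in THP1 (19.1% higher and 18.6% lower among all genes). The shCtrl and shPRMT9 libraries did not overlap for any of the 10 genes in Molm13 and for 9 in THP1, which is common with 2 libraries a group: 81.9% and 66% of all genes did the same.

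**Figure D1:**
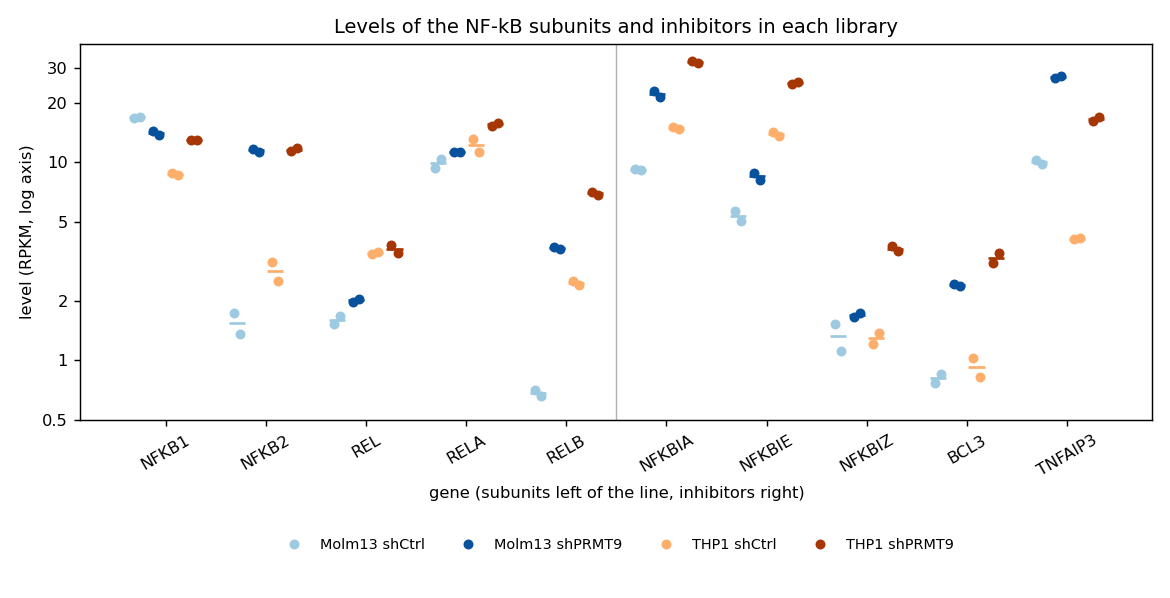
Level of each gene in RPKM (log axis) in the 8 libraries; points are libraries, short bars the mean of 2, colors the 4 groups. NFKB2 and RELB were low in every shCtrl library and rose in both lines, while NFKB1 fell in Molm13 and rose in THP1, and RELA and REL changed by less than 1.5-fold.

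**Figure D2:**
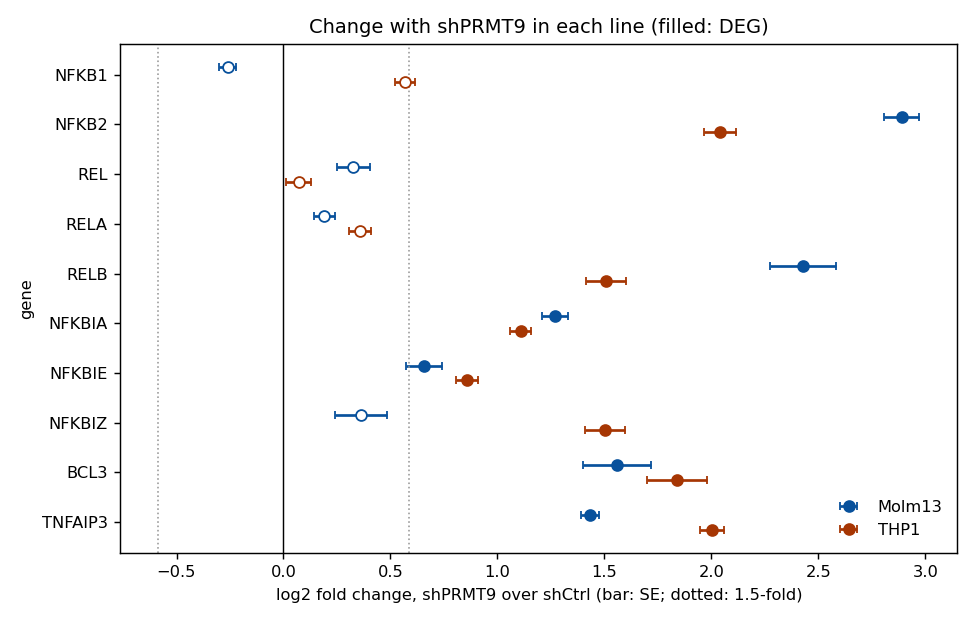
Log2 fold change of shPRMT9 over shCtrl for each gene (horizontal axis) in Molm13 and THP1 with its SE; filled points are DEGs and dotted lines mark 1.5-fold. NFKB1 lies on opposite sides of 0 in the lines, at -0.26 and 0.57, and NFKB2 has the highest value in both, 2.89 and 2.04.

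Among the subunits, NFKB2 (chr10:102394110-102402529), which encodes p100/p52, changed most. In Molm13, it stood at 1.74 and 1.36 RPKM in control cells and at 11.7 and 11.3 RPKM with KD (log2 fold change 2.89 ± 0.08 SE, FDR = 1.61e-30). In THP1 it was 3.13 and 2.51 RPKM against 11.4 and 11.7 RPKM, a log2 fold change of 2.04 ± 0.07 (FDR = 4.86e-19). The control levels were apart and the KD levels close between the lines, and the log2 fold change was 0.84 ± 0.13 smaller in THP1 (interaction over the 8 libraries, FDR = 6.21e-07).

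RELB (chr19:45001430-45038198) encodes the transcriptionally active partner of p52. Molm13 shCtrl libraries held only 44 and 39 RELB counts (0.71 and 0.66 RPKM), and the shPRMT9 libraries held 212 and 236 (3.74 and 3.66 RPKM). RELB therefore exceeded the minimum of 1 RPKM in this line only through the KD libraries, and its log2 fold change was 2.43 ± 0.15 (FDR = 2.98e-18). In THP1, RELB went from 2.51 and 2.40 RPKM to 7.09 and 6.85 RPKM (log2 fold change 1.51 ± 0.09, FDR = 7.56e-14). As for NFKB2, the control level was higher in THP1 and the log2 fold change smaller, by 0.91 ± 0.20 (FDR = 0.000145).

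NFKB1 (chr4:102501329-102617302), the source of p105/p50, was the member that moved in opposite directions. In Molm13, it was the most abundant of the 10 genes without KD, at 16.8 and 16.9 RPKM, and it stood at 14.4 and 13.8 RPKM with KD (log2 fold change -0.26 ± 0.04, FDR = 1.48e-07). In THP1, it rose from 8.80 and 8.66 RPKM to 12.9 and 13.0 RPKM (0.57 ± 0.05, FDR = 4.74e-11). That is a 1.48-fold increase, just inside the 1.5-fold limit, so NFKB1 was a DEG in neither line. The difference between the lines was 0.84 ± 0.06 (FDR = 2.25e-16).

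RELA (chr11:65653596-65663094) encodes p65, the main activating subunit of the canonical arm. It went from 9.40 and 10.4 RPKM to 11.3 and 11.3 RPKM in Molm13 (log2 fold change 0.19 ± 0.05, FDR = 0.000803) and from 13.1 and 11.3 RPKM to 15.3 and 15.9 RPKM in THP1 (0.36 ± 0.05, FDR = 2.86e-06). These small increases passed the FDR limit only, and the Molm13 value did not pass without the library shCtrl-1 (0.11, FDR = 0.0828).

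REL (chr2:60881521-60931610) encodes c-Rel, a subunit prominent in lymphoid and myeloid cells. Its level was 1.52 and 1.68 RPKM against 1.98 and 2.03 RPKM in Molm13, where the log2 fold change of 0.33 ± 0.08 passed the FDR limit (FDR = 0.000285). In THP1, the libraries overlapped, with 3.43 and 3.51 RPKM in shCtrl and 3.80 and 3.48 RPKM in shPRMT9 (0.07 ± 0.06, FDR = 0.375). RELA differed between the lines by 0.18 ± 0.08 (FDR = 0.051) and REL by -0.24 ± 0.10 (FDR = 0.0473), both close to the limit. The REL value is per total exon length over all isoforms, 11255 bases, so its RPKM sits low beside those of genes with shorter exon models.

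The share of each gene in the summed RPKM of the 5 subunits changed accordingly. NFKB1 made up 55.1% ± 0.7 (SD, n = 2) of the sum in Molm13 shCtrl cells and 33.1% ± 0.4 with KD, whereas NFKB2 went from 5.07% ± 0.98 to 27.0% ± 0.2. RELB went from 2.24% ± 0.17 to 8.67% ± 0.02. In THP1, NFKB2 went from 9.49% ± 0.89 to 22.8% ± 0.4, RELB from 8.28% ± 0.23 to 13.8% ± 0.4 and NFKB1 from 29.5% ± 1.5 to 25.5% ± 0.1. The genes of the alternative arm thus took a larger share in every KD library of both lines. RELA fell as a share, from 41% ± 1.7 to 30.7% ± 0.7 in THP1 and from 32.4% ± 1.6 to 26.5% ± 0.4 in Molm13, although its own level did not fall. The sum itself was 30.1 and 31.0 RPKM in Molm13 shCtrl and 43.1 and 42.1 RPKM in shPRMT9, and 30.9 and 28.4 RPKM against 50.5 and 50.9 RPKM in THP1. RNA levels do not show how much p100 is processed to p52.

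**Figure D3:**
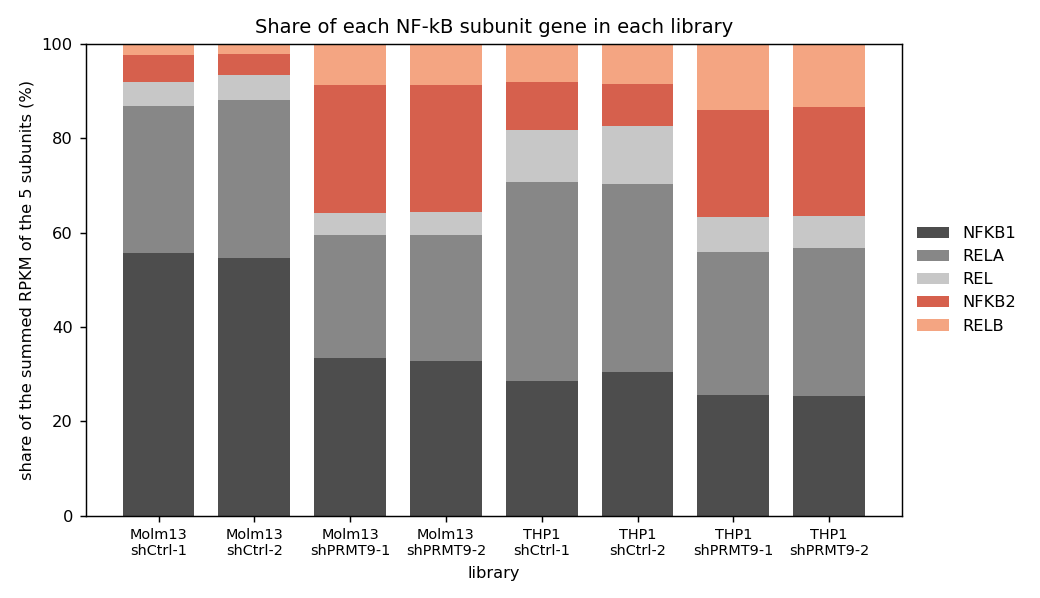
Share (%) of each subunit gene in the summed RPKM of the 5 subunits, 1 bar per library. NFKB2 and RELB (colored) take 6.49% to 18.2% of the sum in shCtrl libraries and 35.6% to 36.6% in shPRMT9 libraries.

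Ratios within a library do not depend on the scaling between libraries. The RPKM ratio of NFKB2 to NFKB1 was 0.104 and 0.0801 in Molm13 control cells against 0.816 and 0.820 with KD, and 0.356 and 0.290 against 0.882 and 0.906 in THP1. That of RELB to RELA was 0.0755 and 0.0631 against 0.330 and 0.324 in Molm13, and 0.192 and 0.212 against 0.465 and 0.431 in THP1. Both ratios were higher in each KD library than in either control library of its line.

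Among the cytoplasmic inhibitors, NFKBIA (chr14:35401511-35404749), which encodes IkB-alpha, went from 9.21 and 9.13 RPKM to 23.0 and 21.3 RPKM in Molm13 (log2 fold change 1.27 ± 0.06, FDR = 3.28e-22). In THP1, it went from 15.1 and 14.8 RPKM to 32.6 and 31.8 RPKM (1.11 ± 0.05, FDR = 1.13e-16). The fold changes of the lines differed by -0.15 ± 0.08, which did not pass (FDR = 0.155). NFKBIE (chr6:44258166-44265788), the gene for IkB-epsilon, rose less. Its levels were 5.68 and 5.07 RPKM against 8.83 and 8.18 RPKM in Molm13 (0.66 ± 0.08, FDR = 3.95e-09) and 14.2 and 13.6 RPKM against 24.8 and 25.6 RPKM in THP1 (0.86 ± 0.05, FDR = 9.78e-14). The line difference of 0.21 ± 0.10 did not pass either (FDR = 0.0918). In Molm13, the 1.58-fold change of NFKBIE was the member just outside the 1.5-fold limit, and without the library shCtrl-2 5 members were DEGs in place of 6.

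Set against the subunits, the inhibitor RNA increased. The summed RPKM of NFKBIA and NFKBIE was 0.494 and 0.458 of the subunit sum in Molm13 control cells and 0.738 and 0.702 with KD. In THP1, the ratios were 0.949 and 1.00 against 1.14 and 1.13. Control THP1 cells thus already held more NFKBIA and NFKBIE RNA per subunit RNA than Molm13 cells with KD. NFKBIB, a further IkB gene, was left out of these sums. It fell from 32.4 CPM to 20.7 CPM in Molm13 (at most 14.3 RPKM in a library) and was 24.4 CPM and 24.8 CPM in THP1. The ratios therefore do not describe the inhibitors as a whole. Because the lines were processed as separate tables, a difference in level between lines and a difference in handling cannot be told apart.

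NFKBIZ and BCL3 encode nuclear IkB proteins, which bind p50 or p52 dimers on DNA and can switch on a subset of targets. NFKBIZ (chr3:101827991-101861022) was a DEG in THP1 alone. In THP1, it rose from 1.21 and 1.37 RPKM to 3.76 and 3.57 RPKM (log2 fold change 1.5 ± 0.09, FDR = 1.13e-13). In Molm13, 1.52 and 1.12 RPKM stood against 1.66 and 1.74 RPKM (0.36 ± 0.12, FDR = 0.00865), a change that did not pass with DESeq2 (FDR = 0.131) or without the library shCtrl-2 (0.16, FDR = 0.285). Without the library shCtrl-1 it was 0.60 (FDR = 0.000108) and NFKBIZ was a DEG in Molm13 too, so this call rests on 1 control library. The difference between lines was 1.15 ± 0.16 (FDR = 6e-08), and 0.88 without shCtrl-1 (FDR = 0.000277).

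BCL3 (chr19:44747705-44760044) was among the scarcest members in control cells, with 51 and 54 counts in Molm13 and 85 and 74 in THP1. With KD, it had 147 and 163 counts in Molm13 (0.77 and 0.85 RPKM against 2.42 and 2.36 RPKM, log2 fold change 1.56 ± 0.16, FDR = 9.49e-12). Like RELB, it exceeded 1 RPKM in Molm13 only through the KD libraries. In THP1, it had 253 and 281 counts (1.02 and 0.82 RPKM against 3.10 and 3.49 RPKM, log2 fold change 1.84 ± 0.14, FDR = 9.58e-12). The line difference, 0.29 ± 0.23, did not pass (FDR = 0.347).

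TNFAIP3 (chr6:137867188-137883312) encodes A20, a ubiquitin-editing enzyme that shuts off signaling upstream of the IkB kinases. In Molm13, it went from 10.3 and 9.76 RPKM to 26.8 and 27.4 RPKM (log2 fold change 1.43 ± 0.04, FDR = 4.25e-30) and became the most abundant of the 10 genes. In THP1, it went from 4.11 and 4.13 RPKM to 16.2 and 16.9 RPKM (2.00 ± 0.06, FDR = 7.23e-22). The change was larger in THP1 by 0.59 ± 0.07 (FDR = 3.74e-09). An opposite-strand gene, RP11-356I2.4, overlaps TNFAIP3, and its counts did not exceed 116 in any Molm13 and 51 in any THP1 library.

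In total, the response to KD differed between the lines for 6 of the 10 genes. NFKB1, NFKBIZ and TNFAIP3 had the higher log2 fold change in THP1, as did 22.5% of 19288 genes, and NFKB2, REL and RELB had the higher one in Molm13, as did 18.9%.

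The order of the levels differed between the lines and changed with KD. In Molm13 shCtrl cells, it ran from NFKB1 (16.9 RPKM ± 0.1, SD) through TNFAIP3 and RELA, whose libraries overlapped, then NFKBIA and NFKBIE. REL, NFKB2 and NFKBIZ followed, each overlapping its neighbor, with BCL3 and RELB (0.68 RPKM ± 0.04) last. With KD, TNFAIP3 (27.1 RPKM ± 0.5) and NFKBIA (22.2 RPKM ± 1.2) came first, and NFKB2 and RELA overlapped at 11.5 RPKM ± 0.3 and 11.3 RPKM ± 0.05. In THP1, NFKBIA (14.9 RPKM ± 0.3) and NFKBIE (13.9 RPKM ± 0.4) led in shCtrl cells and still led with KD (32.2 RPKM ± 0.6 and 25.2 RPKM ± 0.5). There, NFKBIZ, REL and BCL3 came last with KD, and REL overlapped both of the others. This order depends on the exon lengths: by CPM, RELA came first in both THP1 groups, NFKBIA and NFKBIE came no higher than place 4, and 30 of the 40 places changed.

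Set beside their promoters, members with a kB match varied in their response. NFKB2, NFKBIA and TNFAIP3, each with a match, were DEGs in both lines, and NFKBIZ was one in THP1. NFKB1, with a match at -49, moved by -0.26 (log2) in Molm13 but by 0.57 in THP1, and REL, with matches from -47, had values of 0.33 and 0.07. BCL3 rose in both lines with no match in the window searched.

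Other genes of the pathway were read from 4 lists, without the 10 members. In the canonical arm, from receptors to IkB kinases, 0 of 23 tested genes were called higher and 2 lower in Molm13, and 2 of 24 were called higher and 0 lower in THP1. Over all genes, the shares called are those given above for the members (11.4% in each direction in Molm13, 3.84% higher and 2.39% lower in THP1). At an unadjusted p below 0.05 in edgeR's test, 13 were higher and 5 lower in Molm13, where 34.6% of all genes were higher and 34.8% lower, and 14 were higher and 4 lower in THP1, where 22.7% and 22.3% were. The Molm13 DEGs were CHUK, the IkB kinase subunit IKK-alpha (-1.36 ± 0.05, FDR = 1.51e-27), and IRAK1, a kinase downstream of MYD88 (-1.19 ± 0.04, FDR = 1.76e-29). CHUK went from 97.5 CPM ± 0.04 to 38 CPM ± 1.1 in Molm13, while it was 78.5 CPM ± 1.2 and 80.0 CPM ± 1.0 in THP1, a line difference of 1.40 (FDR = 7.97e-23). The THP1 DEGs were BIRC3, a ubiquitin ligase of TNF receptor complexes (2.58 ± 0.17), and MYD88, the toll-like receptor adaptor (1.09 ± 0.05). BIRC3 is also in the list of NF-kB target genes below, so its THP1 call is counted in both lists. BIRC3 had a log2 fold change of 4.34 in Molm13 too (0.199 CPM to 4.16 CPM) but did not reach 1 RPKM there, and in THP1 it exceeded 1 RPKM only with KD.

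In the alternative arm, 2 of 9 genes were called higher and 2 lower in Molm13 (5 higher without the RPKM minimum). In THP1, 3 of 9 were called higher and 0 lower. Over all genes, 11.4% were called in each direction in Molm13, and 3.84% higher and 2.39% lower in THP1. At an unadjusted p below 0.05 (edgeR), 0 genes of this list were lower in THP1, where 22.3% of all genes were. MAP3K14, the kinase NIK that starts p100 processing, was a DEG in THP1 (1.08 ± 0.12, FDR = 3.11e-08). In Molm13, it had a value of 0.59 (FDR = 0.00283) and was not called because it did not reach 1 RPKM. The receptors CD40 (1.66 ± 0.21) and LTBR (0.92 ± 0.06) were the other THP1 DEGs, and CD40 and MAP3K14 exceeded 1 RPKM only with KD. CD40 also had a log2 fold change of 3.54 in Molm13 (0.0501 CPM to 0.643 CPM, FDR = 3.81e-05) but did not reach 1 RPKM there. Its line difference did not pass (FDR = 0.107). In Molm13, the receptors TNFRSF1B (1.24 ± 0.04) and TNFRSF13C (0.74 ± 0.13) were higher and CHUK, which this list shares, and TNFRSF12A (-0.60 ± 0.19) were lower. TNFRSF12A had low levels (3.82 CPM to 2.52 CPM), and with DESeq2 1 gene of this list was called lower in Molm13 in place of 2. Molm13, in which NFKB2 and RELB had the larger log2 fold changes, was also the line in which CHUK, the kinase of this arm, fell. A link between these changes was not tested.

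Of the further inhibitors and feedback genes, 4 of 19 were called higher and 1 lower in Molm13, and 3 of 19 were called higher and 1 lower in THP1. Over all genes, 11.4% were called in each direction in Molm13, and 3.84% higher and 2.39% lower in THP1. In Molm13, SIGIRR (1.47 ± 0.10), TNIP1, a partner of A20 (0.85 ± 0.04), TNFAIP8L2 (0.80 ± 0.06) and NFKBID, a further nuclear IkB gene (0.76 ± 0.10), were higher, and NFKBIB, the gene for IkB-beta, was lower (-0.64 ± 0.07, FDR = 6.11e-11; named after its value was seen). In THP1, ZC3H12A, an RNase that degrades cytokine mRNA (1.75 ± 0.08), the deubiquitinase CYLD (0.91 ± 0.05) and TNIP2 (0.72 ± 0.06) were higher and PDLIM2 (-0.78 ± 0.10) was lower. NFKBIB in THP1 had a value of 0.03 (FDR = 0.802), so the IkB genes did not all move one way.

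The NF-kB target list had the most calls. For comparison, the DEG rule called 11.4% of all genes in each direction in Molm13, and 3.84% higher and 2.39% lower in THP1. At an unadjusted p below 0.05 (edgeR), 34.6% of all genes were higher and 34.8% lower in Molm13. The THP1 shares at that limit were 22.7% and 22.3%. In Molm13, 9 of 22 tested targets were called higher and 0 lower (17 higher and 2 lower at an unadjusted p below 0.05, edgeR), with a median log2 fold change of 0.69, and in THP1 15 of 27 were called higher and 0 lower (22 higher and 0 lower at an unadjusted p below 0.05), with a median of 1.30. With DESeq2, the counts of 0 called in these lists stayed at 0. The counts at an unadjusted p were not recomputed with it. In Molm13, the DEGs with the largest change were CCL3 (2.27 ± 0.41), BCL2A1, a survival gene (2.17 ± 0.24), IL1B (1.74 ± 0.18) and PTX3 (1.52 ± 0.20). In THP1, they were CCL2 (4.29 ± 0.18), MMP9 (3.90 ± 0.21), IER3 (3.33 ± 0.36) and CXCL8 (2.81 ± 0.12). Of these calls, 3 of the 9 in Molm13 and 9 of the 15 in THP1 exceeded 1 RPKM only in KD libraries, CCL3 and IL1B in Molm13 and CCL2, MMP9 and IER3 in THP1 among them. CCL3 stood at 0.302 CPM and 1.48 CPM in Molm13, and CCL2 at 0.754 CPM in THP1 control cells, so the folds of such genes rest on few control counts.

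**Figure D4:**
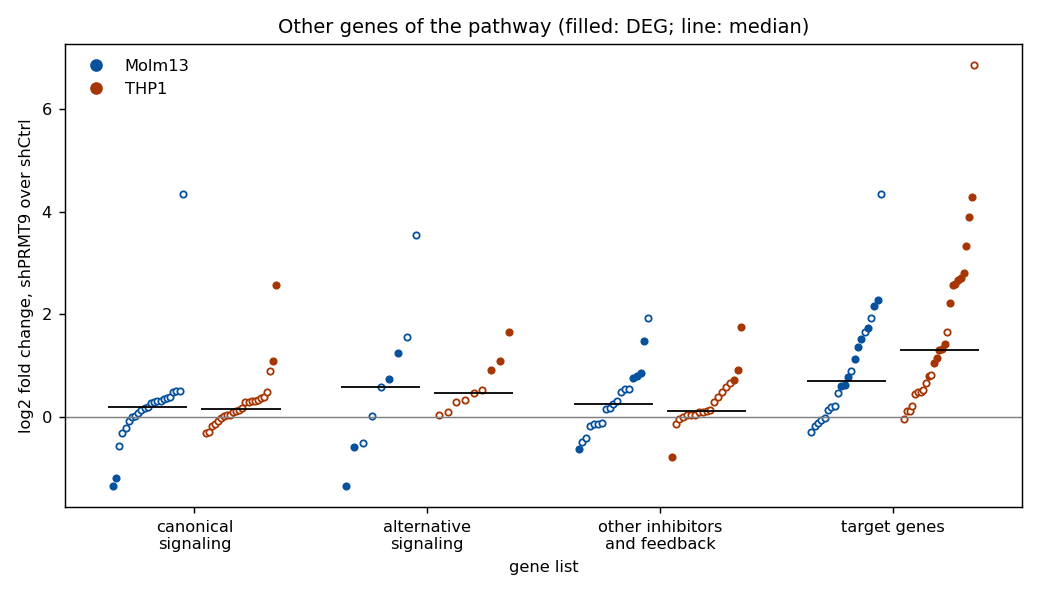
Log2 fold change of shPRMT9 over shCtrl (vertical axis) for tested genes of 4 pathway lists, members left out, in Molm13 and THP1; filled points are DEGs and lines are medians. Medians lie between 0.11 and 0.59 in the first 3 lists and at 0.69 and 1.30 for the targets.

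For each member, the gene with the most similar pattern was found by the distance between log2 CPM over the 8 libraries, centered for each gene. The nearest gene was MMP19 for NFKB2 (distance 0.71), IRF7 for RELB (0.54), LDLRAD3 for NFKB1 (0.19), PIGB for REL (0.12) and KCNAB2 for RELA (0.18). For the inhibitors, it was TRIM21 for NFKBIA (0.33), LYZ for NFKBIE (0.29), PLSCR1 for NFKBIZ (0.38), SDS for BCL3 (0.39) and IFI16 for TNFAIP3 (0.35). LDLRAD3 shared the opposite signs of NFKB1, at -0.38 in Molm13 and 0.54 in THP1. These pairs are descriptions of 8 shared libraries.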

How the data were processed

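The authors deposited 1 table of counts per gene for each line: whole-number, unnormalized counts of poly(A) RNA-seq reads. The submitters' processing notes name TopHat2 2.0.8, HTSeq 0.11.2, edgeR 3.30.3 and build hg38; the strand setting and annotation are not given in the sources used here. Gene coordinates are those of the deposited tables.

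In each line, shPRMT9 was compared with shCtrl by edgeR 4.0.16 (R 4.3.3): filterByExpr kept 16446 (Molm13) and 16294 (THP1) genes, TMM factors ranged from 0.989 to 1.02, and the quasi-likelihood test was adjusted over all genes of the line. The SE was derived from the log2 fold change and its F statistic. Line differences (THP1 minus Molm13) came from a fit of all 8 libraries over 19288 genes. CPM and RPKM were computed from the counts with TMM factors and total exon length. Replicates of a group differed by more than counting noise (chi-square per gene 1.36 to 2.21). The test was checked on simulated counts.

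Named genes were the 10 members, PRMT9, up to 4 DEGs of each pathway list and line with the largest change, and the gene nearest to each member. Members and lists were chosen with earlier results of these data known. Alternatives were other scalings, filters, tests and call rules, a replicate block, leaving out each library (limits in the closing section), and DESeq2 1.42.0.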

Additional observations from a re-analysis of the deposited data

Results flagged for a closer look

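The response of 6 of the 10 genes to shPRMT9 differed between the lines in the interaction test over 8 libraries, given as the log2 fold change in THP1 minus that in Molm13. Such differences were common: of 19288 genes, 22.5% passed with the higher value in THP1 and 18.9% with the higher value in Molm13. NFKB1 differed by 0.84, with a decrease in both Molm13 KD libraries and an increase in both THP1 KD libraries. NFKBIZ differed by 1.15 and TNFAIP3 by 0.59, both with the higher value in THP1. NFKB2 differed by -0.84, RELB by -0.91 and REL by -0.24, with the higher value in Molm13. The REL difference passed at FDR = 0.0473 and was lost under 7 alternatives. The lines were deposited as separate tables, so line and handling cannot be told apart.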

How the results depend on the processing

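With 2 libraries a group, the spread is poorly estimated, and RELB (39 counts) and BCL3 (51 counts) were the thinnest members in Molm13. The member calls were 6 in Molm13 and 7 in THP1 with DESeq2 size factors, library size, no filter, DESeq2, the likelihood ratio test, no RPKM minimum and a common fit. FDR alone gave 10 in Molm13 and 9 in THP1, and a 2-fold limit 5 and 6. Leaving out 1 library gave 5 to 7 calls in Molm13 and 7 in THP1, member medians of 0.92 to 1.03 and 1.27 to 1.33, and 5 to 7 line differences. Library size alone gave a THP1 median of 1.28. The cause of these shifts was not tested.

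Same-numbered libraries showed little shared deviation (correlation over genes -0.09 in Molm13 and 0.01 in THP1, 2 pairs a line). With so few pairs, this check cannot exclude a pairing by replicate number. With the replicate block, 6 and 7 members were called and 5 line differences passed in place of 6, REL being the one lost (FDR = 0.0652). PRMT9 was at -2.67 and -2.29 in the blocked fit.

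No log2 fold change of a member changed sign under any of these alternatives, and 215 of 220 values kept their side of the FDR limit; the 5 others were RELA and NFKBIZ in Molm13. Of 140 line differences, 129 did, and the others were of REL, RELA and NFKBIA. Of 224 pathway list counts, recomputed as an alternative chosen after seeing the data, 23 moved by over 1.5 times, 11 of them under FDR alone. Ranks of levels changed in 30 of 40 cases with CPM in place of RPKM.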
